A study of Mus musculus with 12 samples.

Results

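Dusp1, Dusp4, Dusp5, Dusp6, Dusp14, Spry2, Spry4, Spred1 and Spred2 encode phosphatases that act on mitogen-activated protein kinases (MAPKs) and inhibitors of the pathway that activates them. They were chosen by name, and each Ensembl identifier of the count table was matched to its symbol in the GENCODE M21 annotation of GRCm38. These are 9 of the 50563 genes listed, and 30214 of those were counted at least once in some library, and all 9 passed the filter on low counts. RNA-Seq was measured in the brain cortex of 12 E4FAD mice, with 1 library per mouse. All mice carried the genotype APOE4+/+, 5FAD-/+, that is, human APOE4 in place of the mouse gene and 1 copy of the 5xFAD transgenes, which drive human amyloid precursor protein and presenilin in neurons. The CTRL group (n = 7, 2 mice at 12 months and 5 at 14 months) received vehicle by oral gavage, and the DPAn-6 group (n = 5, 2 mice at 12 months and 3 at 14 months) received docosapentaenoic acid of the n-6 series, a long-chain metabolite of linoleic acid. The comparison asks how the fatty acid acted on the brain late in amyloid disease. Sex is not labelled mouse by mouse, and no mouse without the transgenes was analysed here.

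Growth factors and synaptic activity switch on Ras, Raf, MEK and ERK in turn, and ERK signalling induces the transcription of its own inhibitors. Dual-specificity phosphatases (DUSPs) remove the activating phosphates from MAPKs: Dusp6 acts on ERK in the cytoplasm, Dusp5 on ERK in the nucleus, and Dusp1 and Dusp4 in the nucleus on p38, JNK and ERK. Sprouty (Spry) and Spred proteins act further upstream, where they restrain the passage of the signal from receptor tyrosine kinases through Ras to Raf. In the cortex, transcripts of Dusp1, Dusp5 and Dusp6 belong to the genes that respond to neuronal activity together with Fos and Nr4a1.

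The promoter sequences of Dusp1 and Dusp5 are shown because both genes carry, close to their start in RefSeq, a motif that transcription factors downstream of ERK or cyclic AMP can bind. Of the 9 genes, 7 had a promoter of 300 bases in RefSeq (GRCm38.p6, 250 bases before to 50 after the start), and Dusp4 and Spry4 were not matched. In the windows, 4 motifs were searched on both strands: the cyclic AMP response element (TGACGTCA), the CArG box bound by serum response factor, the AP-1 site (TGANTCA) and the EGR site (GCGNGGGCG). Dusp1 held a cyclic AMP response element 143 to 136 bases before the start, and Dusp5 held 2 adjacent CArG boxes, at 82 to 73 and at 72 to 63 bases before it. For Dusp1 this RefSeq start lies inside the longer gene of GENCODE M21 (chr17:26505590-26562128, minus strand), which served for its length and overlaps. Each stretch is 150 bases, read 5′ to 3′ on the strand of the gene, with the motif in capitals.
Dusp1, chr17:26508523-26508672, minus strand: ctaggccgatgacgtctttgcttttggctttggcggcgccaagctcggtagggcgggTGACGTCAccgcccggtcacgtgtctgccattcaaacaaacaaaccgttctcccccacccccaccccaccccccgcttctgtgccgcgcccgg
Dusp5, chr19:53528945-53529094, plus strand: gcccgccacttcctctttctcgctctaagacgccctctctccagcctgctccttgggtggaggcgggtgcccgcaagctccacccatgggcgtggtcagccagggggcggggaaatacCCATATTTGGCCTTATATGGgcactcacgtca
Of all 32851 promoter windows of this length, 1.79% held the cyclic AMP response element, 1.63% a CArG box, 7.81% an AP-1 site and 5.55% an EGR site. The windows of Dusp6, Dusp14, Spry2, Spred1 and Spred2 held none of these letters, which says nothing about binding elsewhere.

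Library totals ranged from 15339098 to 19500154 counts in CTRL mice (median 17449553) and from 15208803 to 26520251 in DPAn-6 mice (median 18400132). The lowest count of any of the 9 genes in a library was 107, for Dusp4, so none was near the limit of detection. CTRL replicate 3 stood apart from its group: its mean chi-square per gene against the other CTRL libraries was 79.4 to 145, compared with 9.37 to 52.3 among the other CTRL pairs and 5.93 to 14.0 among DPAn-6 pairs. No pair of libraries came near 1, the value that counting noise alone would give. Genes of cortical neurons were present at high levels, with Slc17a7, Neurod6, Tbr1 and Cux2 summing to 1797 to 2510 CPM (counts scaled to a common library total) in CTRL and 2157 to 2326 in DPAn-6 mice.

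On a scale corrected for transcript length (RPKM, computed here from the counts), Spred1 had the highest mean level of the 9 genes, 31.8 ± 4.90 (SD, n = 12). Next came Dusp14 at 28.1 ± 4.05, Spred2 at 26.6 ± 3.37, Spry2 at 25.7 ± 2.80 and Dusp6 at 19.7 ± 2.61 RPKM. The lowest were Dusp1 at 8.40 ± 2.36, Dusp5 at 5.34 ± 1.57, Dusp4 at 3.75 ± 0.853 and Spry4 at 3.74 ± 0.496 RPKM. Of neighbours in this order, Dusp6 and Dusp1 were the pair whose ranges over the mice did not overlap. The top genes were not cleanly ordered, since Spred1 was above Dusp14 in 9 of 12 mice, Dusp14 above Spred2 in 8 and Spred2 above Spry2 in 6. Within single mice the middle of the order was steadier, with Spry2 above Dusp6, Dusp6 above Dusp1 and Dusp5 above Dusp4 in 12 of 12 mice.

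**Figure D1:**
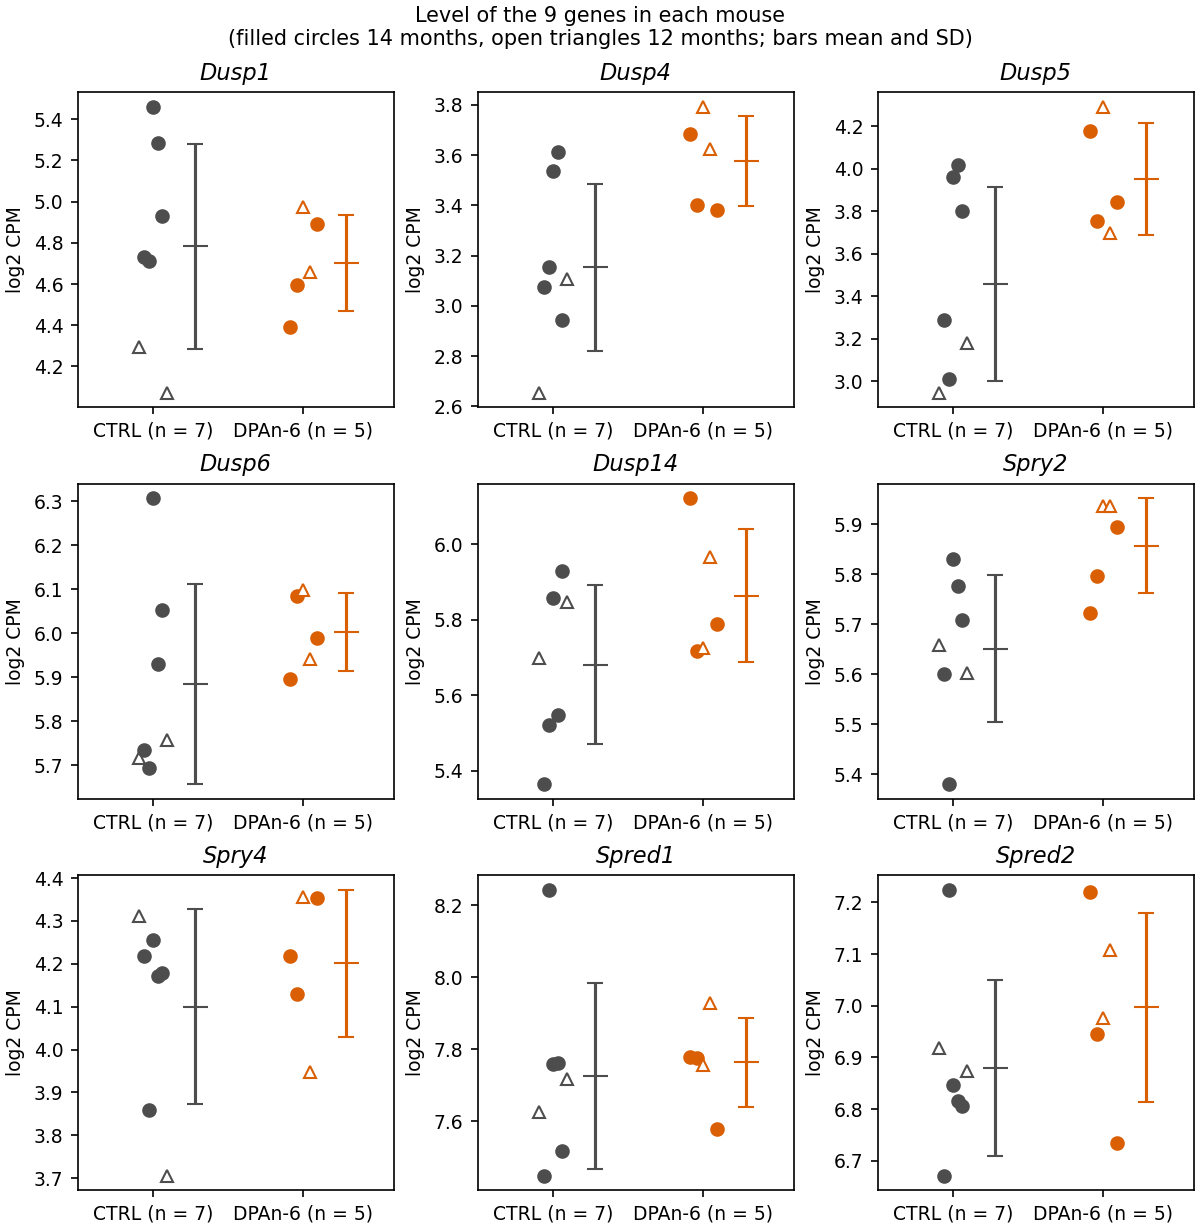
Level of each of the 9 genes in every mouse, as log2 CPM on the y axis, with CTRL (n = 7) and DPAn-6 (n = 5) on the x axis. Filled circles are 14-month and open triangles 12-month mice, and the bars give the mean and SD of each group. For Dusp4 and Spry2, 5 of 7 CTRL mice lie below all DPAn-6 mice, and for Spred1 CTRL replicate 3 lies alone at 8.24.

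None of the 9 genes passed an adjusted p of 0.05 between the groups, while 7 had a fitted level that was higher and 2 a level that was lower in DPAn-6 mice. The 3 with an unadjusted p below 0.05 were the nuclear phosphatases Dusp4 and Dusp5 and the receptor pathway inhibitor Spry2, all with higher means in DPAn-6 mice, by 1.30-fold, 1.35-fold and 1.13-fold. In edgeR's quasi-likelihood test with Benjamini-Hochberg adjustment, 243 of 15688 genes tested were called, 1.55%, and limma-voom and DESeq2 called 1.43% and 4.44%. At an unadjusted p below 0.05, 3 of the 9 genes (33.3%) stood beside 14.5% of all genes in either direction and 5.51% in the direction of DPAn-6. The lowest adjusted p of the 9 genes was 0.255 in edgeR, 0.233 in limma-voom and 0.187 in DESeq2, and all of these tools gave 0 adjusted and the same 3 unadjusted genes, where limma-voom and DESeq2 had 14.5% and 15.6% of the table below an unadjusted p of 0.05. The median log2 fold change of the 9 genes was 0.09, beside -0.00 over all genes tested, of which 48.7% had a log2 fold change above 0. Since the tissue is bulk cortex, fewer cells of a type and less RNA per cell cannot be told apart for any of these values.

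**Figure D2:**
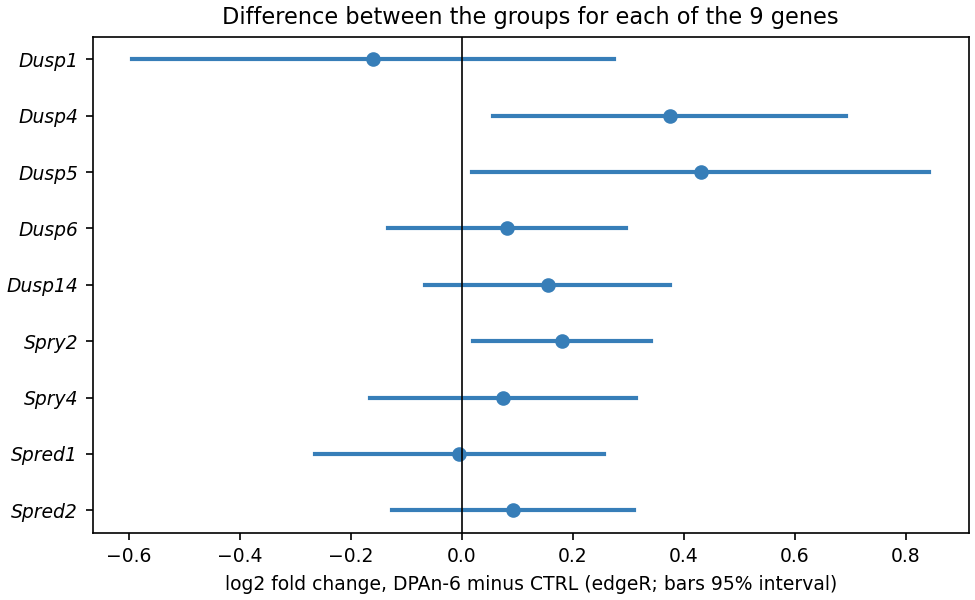
Fitted difference between the groups for each of the 9 genes, as log2 fold change of DPAn-6 over CTRL (edgeR, 7 and 5 mice), with points for the estimate and bars for the 95% interval. The intervals of Dusp4, Dusp5 and Spry2 lie above 0 before adjustment, and that of Dusp1 is the widest, from -0.59 to 0.27.

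Dusp4 (ENSMUSG00000031530, GRCm38 chr8:34807297-34819894, plus strand) had log2 CPM values of 2.65 at the lowest, 3.11 at the median and 3.61 at the highest in CTRL mice. The DPAn-6 mice had 3.68, 3.40, 3.79, 3.62 and 3.38. All 5 DPAn-6 mice were above the CTRL mean and 3 were above every CTRL mouse, but the 2 highest CTRL mice kept the groups overlapping. The group means were 3.15 ± 0.33 (SD, n = 7) and 3.58 ± 0.18 (SD, n = 5) log2 CPM. The fitted log2 fold change was 0.37 (SE 0.15, 95% interval 0.06 to 0.69), with an adjusted p of 0.255 in edgeR. A two-sided exact permutation test of the mean log2 CPM, which can go no lower than 0.00126 in these groups, gave p = 0.0303.

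Dusp5 (ENSMUSG00000034765, GRCm38 chr19:53529109-53542431, plus strand), the ERK phosphatase of the nucleus whose CArG boxes are shown above, ranged in CTRL mice from 2.94 to 4.02 log2 CPM with a median of 3.29. The DPAn-6 mice had log2 CPM values of 4.18, 3.75, 4.29, 3.70 and 3.84. CTRL mice fell into 4 that were below all DPAn-6 mice and 3 that lay among them, and 2 DPAn-6 mice exceeded every CTRL mouse. The mean was 3.46 ± 0.46 log2 CPM over the 7 CTRL mice (SD) and 3.95 ± 0.27 over the 5 DPAn-6 mice (SD). The log2 fold change was 0.43 (SE 0.19, 95% interval 0.02 to 0.84), with an adjusted p of 0.318 in edgeR and an exact permutation p of 0.0606. Exons of Dusp5 overlap an annotated antisense gene, and the strand setting of the counting is not given in the sources used here.

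Spry2 (ENSMUSG00000022114, GRCm38 chr14:105891947-105896819, minus strand), an inhibitor of signalling from receptor tyrosine kinases, showed the smallest spread of the 3. Its CTRL values ran from 5.38 through a median of 5.66 to 5.83 log2 CPM, and the DPAn-6 mice had 5.72, 5.80, 5.94, 5.94 and 5.89. Here 5 of 7 CTRL mice were below all DPAn-6 mice and 3 of 5 DPAn-6 mice were above all CTRL mice. The means were 5.65 ± 0.15 (SD, n = 7) and 5.86 ± 0.09 (SD, n = 5) log2 CPM, a log2 fold change of 0.18 (SE 0.08, 95% interval 0.02 to 0.34). The adjusted p was 0.280 in edgeR and the exact permutation p was 0.0202.

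By the exact permutation test, 2 of the 9 genes, Dusp4 and Spry2, had p below 0.05, beside 15.8% of all genes tested in either direction and 8.69% with a higher level in DPAn-6 mice. None of the 9 had groups without overlap, which 3.22% of all genes had. Without DPAn-6 replicate 3, 0 of the 9 genes were below an unadjusted p of 0.05 in edgeR. The log2 fold changes were then 0.32 for Dusp4 (unadjusted p = 0.0696), 0.34 for Dusp5 (unadjusted p = 0.121) and 0.16 for Spry2 (unadjusted p = 0.0693), close to those in all mice. Without DPAn-6 replicate 1, 1 gene, Spry2, was below 0.05, and with each of the other mice left out 2 or 3 were. The genes were not always the same. Without CTRL replicate 3, Spred2 was below 0.05 (unadjusted p = 0.0383 in edgeR) and Dusp5 was not (unadjusted p = 0.0550). Dusp5 was also above 0.05 without CTRL replicate 1, 2 or 7, and Spry2 without DPAn-6 replicate 4 or 5. Among the 14-month mice alone, where the groups held 5 and 3 mice, the log2 fold changes were 0.18 for Dusp4, 0.25 for Dusp5 and 0.12 for Spry2, and the adjusted p in edgeR was 0.786, 0.770 and 0.781. In those mice Dusp1 was the 1 gene of the 9 with an unadjusted p below 0.05, at a log2 fold change of -0.43 (unadjusted p = 0.0444, adjusted p = 0.535 in edgeR), where it was -0.16 in all mice. Its exact permutation p in the 14-month mice was 0.143.

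Among the other phosphatases, Dusp6 (ENSMUSG00000019960, GRCm38 chr10:99263231-99267489, plus strand), the cytoplasmic ERK phosphatase, had 5.69 to 6.31 log2 CPM in CTRL mice and 5.90 to 6.10 in DPAn-6 mice. All 5 DPAn-6 mice lay within the CTRL range and above the CTRL mean, and the log2 fold change was 0.08 (SE 0.10, 95% interval -0.13 to 0.30, adjusted p = 0.787 in edgeR). Without CTRL replicate 4, the highest CTRL mouse, the log2 fold change of Dusp6 was 0.16 (unadjusted p = 0.0615, adjusted p = 0.385 in edgeR), and the exact permutation p was 0.0346. Dusp14 (ENSMUSG00000018648, GRCm38 chr11:84048041-84069261, minus strand), a small atypical phosphatase without a kinase-binding domain, had 5.36 to 5.93 log2 CPM in CTRL and 5.72 to 6.12 in DPAn-6 mice. The estimate for Dusp14 was a log2 fold change of 0.15 (SE 0.10, 95% interval -0.07 to 0.38), with an adjusted p of 0.549 in edgeR.

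Dusp1 (ENSMUSG00000024190, GRCm38 chr17:26505590-26562128, minus strand), the early-response phosphatase of p38 and JNK, varied most among CTRL mice, with an SD of 0.50 around 4.78 log2 CPM (n = 7). Its CTRL values ran from 4.07 through a median of 4.73 to 5.46, and the DPAn-6 mice had 4.39, 4.60, 4.98, 4.66 and 4.89. All 5 DPAn-6 mice lay inside the CTRL range, with a mean of 4.70 ± 0.23 (SD, n = 5). The log2 fold change was -0.16 (SE 0.20, 95% interval -0.59 to 0.27, adjusted p = 0.790 in edgeR), an interval that holds changes of either sign. Exons of Dusp1 overlap those of Ergic1 on the other strand, and without a known strand setting reads from the overlap cannot be told apart.

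Spry4 (ENSMUSG00000024427, GRCm38 chr18:38586247-38601415, minus strand), the other Sprouty gene, had 3.71 to 4.31 log2 CPM in CTRL and 3.95 to 4.36 in DPAn-6 mice. The estimate for Spry4 was a log2 fold change of 0.07 (SE 0.11, 95% interval -0.17 to 0.31, adjusted p = 0.831 in edgeR). Both Spred genes, membrane-bound inhibitors that recruit the Ras inactivator neurofibromin, also overlapped fully between the groups. Spred1 (ENSMUSG00000027351, GRCm38 chr2:117121374-117182279, plus strand) had 7.45 to 8.24 log2 CPM in CTRL and 7.58 to 7.93 in DPAn-6 mice, a log2 fold change of -0.00 (SE 0.12, 95% interval -0.27 to 0.26, adjusted p = 0.994 in edgeR). Spred2 (ENSMUSG00000045671, GRCm38 chr11:19924375-20024026, plus strand) had 6.67 to 7.22 log2 CPM in CTRL and 6.73 to 7.22 in DPAn-6 mice, a log2 fold change of 0.09 (SE 0.10, 95% interval -0.13 to 0.31, adjusted p = 0.755 in edgeR).

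The highest CTRL value of both Spred genes came from CTRL replicate 3, the library that stood apart, and the lowest CTRL value of Spry2 came from it too. Without this mouse the log2 fold change became 0.11 for Spred1 (adjusted p = 0.375 in edgeR), 0.17 for Spred2 (adjusted p = 0.190) and 0.15 for Spry2 (adjusted p = 0.160). Those of Dusp4 and Dusp5 were 0.37 and 0.37 without it, with adjusted p of 0.143 and 0.227 in edgeR. The count of genes called in the whole table went from 243 to 953, 6.1% of those tested, when it was left out, and none of the 9 was among them.

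Age was shared by the groups, and the 14-month mice were compared with the 12-month mice in a model with both terms. No gene in the table was called for age by edgeR, 0% of 15688, and at an unadjusted p below 0.05 there were 279 genes, 1.78%, with none of the 9 among them. The difference between the treatments was then compared between ages. For this interaction 1 gene in the table was called, 0.00637%, and it was not one of the 9. At an unadjusted p below 0.05 the interaction held 4.26% of all genes, and 2 of the 9, Dusp1 and Dusp4.

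Dusp1 differed in opposite directions at the 2 ages. At 12 months, the CTRL mice had 4.07 and 4.30 log2 CPM and the DPAn-6 mice 4.66 and 4.98, a difference of 0.63 with no overlap. With only 2 mice per group at that age, Dusp4, Dusp5, Dusp6, Spry2, Spred1 and Spred2 had no overlap there either. Groups of 2 mice can easily separate by chance, and the share of all genes without overlap at 12 months was not counted. The lack of overlap at 12 months is therefore a description and cannot set Dusp1 or the other genes apart from the table. At 14 months, the 5 CTRL mice had 4.71 to 5.46 and the 3 DPAn-6 mice 4.39 to 4.89 log2 CPM, a difference of -0.40 with overlap. The fitted interaction was -1.08 on the log2 scale (SE 0.30, 95% interval -1.74 to -0.42), with an unadjusted p of 0.00366 and an adjusted p of 0.905 in edgeR. An exact permutation of the treatment within each age, over 336 splits, gave p = 0.0238. Its shuffles assume no treatment difference at either age, so it does not test the interaction alone. With each mouse left out in turn the Dusp1 interaction stayed between -1.23 and -0.89 on the log2 scale, and its lowest adjusted p in edgeR was 0.188, without CTRL replicate 3. So the age pattern of Dusp1 does not pass correction over the table, and it rests on 4 mice at the younger age.

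**Figure D3:**
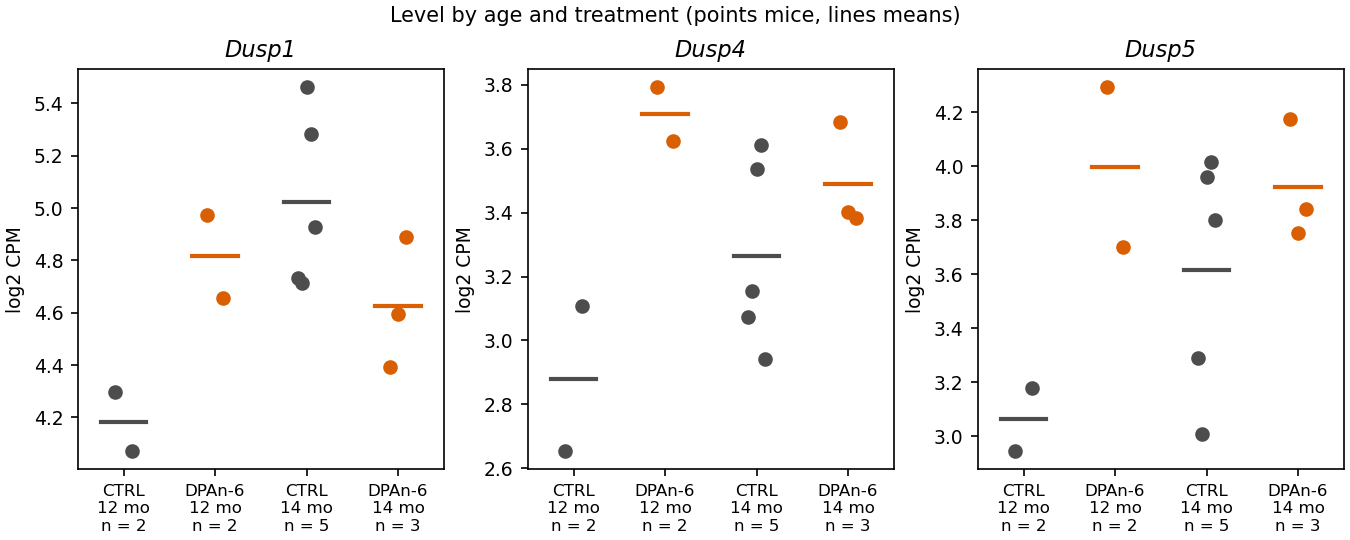
Log2 CPM (y axis) of Dusp1, Dusp4 and Dusp5 in CTRL and DPAn-6 mice at 12 months (n = 2 and 2) and 14 months (n = 5 and 3), with points for mice and lines for means. For Dusp1 the mean of DPAn-6 mice is above that of CTRL mice at 12 months and below it at 14 months, while for Dusp4 and Dusp5 it is above at both ages.

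For Dusp4 the difference of mean log2 CPM between treatments was 0.83 at 12 months and 0.23 at 14 months, and for Dusp5 it was 0.93 and 0.31. The fitted interactions were -0.64 (SE 0.29, unadjusted p = 0.0469, adjusted p = 0.905 in edgeR) and -0.73 (SE 0.37, unadjusted p = 0.0736, adjusted p = 0.905 in edgeR). The exact permutation within ages gave p = 0.324 for Dusp4 and p = 0.384 for Dusp5. A treatment difference shared by both ages widens its shuffled values, so it cannot decide on these interactions. For Spry2 the differences were 0.31 and 0.14 log2 CPM, with an interaction of -0.19 (SE 0.16, adjusted p = 0.905 in edgeR).

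Whether these genes vary together among mice was tested over all 36 pairs, with log2 CPM centred on the mean of each group and permutation within groups. Dusp1, Dusp5 and Dusp6 were correlated with each other, Dusp5 also with Dusp4 and Dusp6 with Spry2, at unadjusted p below 0.05. No pair passed adjustment over the 36 pairs, and 22 pairs were positive. The strongest was Spred1 with Spred2, at Pearson's r = 0.831 (permutation p = 0.00243, adjusted p = 0.0875) and Spearman's rho = 0.650 (permutation p = 0.0285, adjusted p = 0.169) over 12 mice. With CTRL replicates 2 and 3 left out, which lay farthest from the median Spred1 level, its r was 0.585, and without CTRL replicate 3 alone it was 0.662.

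Among the phosphatases, Dusp1 and Dusp6 had r = 0.755 (permutation p = 0.0171, adjusted p = 0.157) and rho = 0.699 (permutation p = 0.0242, adjusted p = 0.169). Dusp5 and Dusp6 had r = 0.740 (permutation p = 0.0161, adjusted p = 0.157) and rho = 0.790 (permutation p = 0.0163, adjusted p = 0.169). Dusp1 and Dusp5 had r = 0.739 (permutation p = 0.0218, adjusted p = 0.157) and rho = 0.790 (permutation p = 0.0092, adjusted p = 0.165). When the 2 mice most distant from the median level of the first gene were left out, these 3 correlations were 0.629, 0.718 and 0.699, so none rested on those mice alone. Within the 14-month mice they were 0.771, 0.657 and 0.624 (n = 8), and the 12-month mice were too few for a value. Dusp4 with Dusp5 had r = 0.728 (permutation p = 0.0190, adjusted p = 0.157, rho = 0.531, permutation p = 0.133, adjusted p = 0.392), and 0.513 without such a pair of mice. Dusp6 with Spry2 had r = 0.701 (permutation p = 0.0297, adjusted p = 0.178, rho = 0.685, permutation p = 0.0187, adjusted p = 0.169), and 0.601 without them. Dusp14 and Spry4 had no pair below an unadjusted p of 0.05. The r of Spry4 was still 0.50 with Dusp1, 0.46 with Spry2, 0.44 with Dusp5 and 0.38 with Dusp6, and -0.03 with Dusp4.

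**Figure D4:**
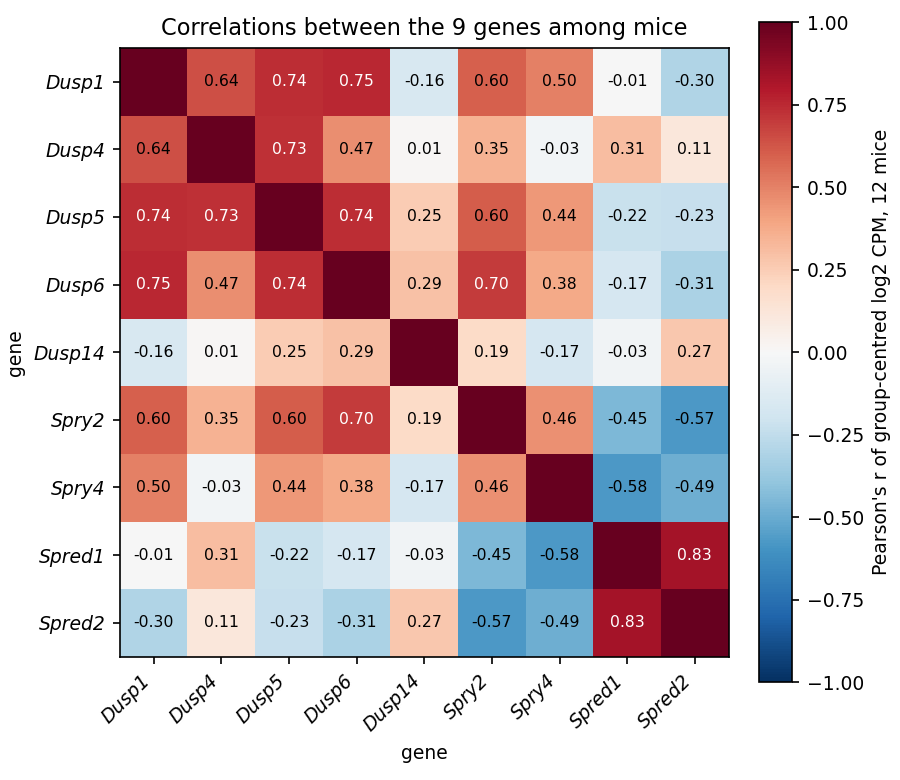
Pearson's r between the 9 genes over 12 mice, from log2 CPM centred on the mean of each treatment group, with genes on both axes and colour from -1 (blue) to 1 (red). All values among Dusp1, Dusp4, Dusp5, Dusp6 and Spry2 are positive, and Spry4 is also positive with each of these except Dusp4. The highest value, 0.83, joins Spred1 and Spred2.

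The same 9 genes were set against 25 transcription factors and effectors that respond to ERK, a family of 225 pairs, again centred on the group means. Of these pairs 7 had an adjusted p below 0.05 and 131 were positive. The family was chosen after the data were seen, and no such count was made over all genes. Over the 25 genes, the median r was 0.21 for Dusp1, 0.12 for Dusp5 and 0.12 for Dusp6, with 17, 16 and 17 positive. With Egr1 the r of Dusp1, Dusp5 and Dusp6 was 0.0066, -0.03 and -0.12, and with Myc it was -0.48, -0.79 and -0.71. Dusp5 followed the nuclear receptor Nr4a1 at r = 0.913 (rho = 0.951, permutation p = 0.00107 for r, adjusted p = 0.0450). Dusp1 also followed Nr4a1, at r = 0.892 (rho = 0.881, adjusted permutation p = 0.0450), and Dusp6 followed Fos, a subunit of AP-1, at r = 0.895 (rho = 0.881, adjusted permutation p = 0.0450). Spry2 followed Junb, another AP-1 subunit, at r = 0.907 (rho = 0.839, adjusted permutation p = 0.0450). The Spred genes showed other partners: Spred1 with Etv1 at r = 0.902 (rho = 0.727), Spred2 with Egr1 at r = 0.847 (rho = 0.671), and Spred2 with Ier2 at a negative r of -0.842 (rho = -0.888), each with an adjusted permutation p of 0.0450.

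These relations split by the library that stood apart. Without CTRL replicate 3, none of the 225 pairs had an adjusted p below 0.05. The coefficients of the phosphatases hardly moved, at 0.926 for Dusp1 with Nr4a1, 0.902 for Dusp5 with Nr4a1 and 0.894 for Dusp6 with Fos (11 mice). Those of Spry2 with Junb, Spred1 with Etv1 and Spred2 with Egr1 were 0.795, 0.709 and 0.698. With the 2 mice most distant from the median level of the DUSP left out, Dusp1 and Dusp5 still had r of 0.876 and 0.849 with Nr4a1, while Dusp6 with Fos had 0.768. The other correlations without such mice were 0.709 for Spry2 with Junb, 0.626 for Spred1 with Etv1, 0.493 for Spred2 with Egr1 and -0.664 for Spred2 with Ier2. By Spearman's rho, no pair passed adjustment over the 225 pairs, and the lowest adjusted p was 0.0579.

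**Figure D5:**
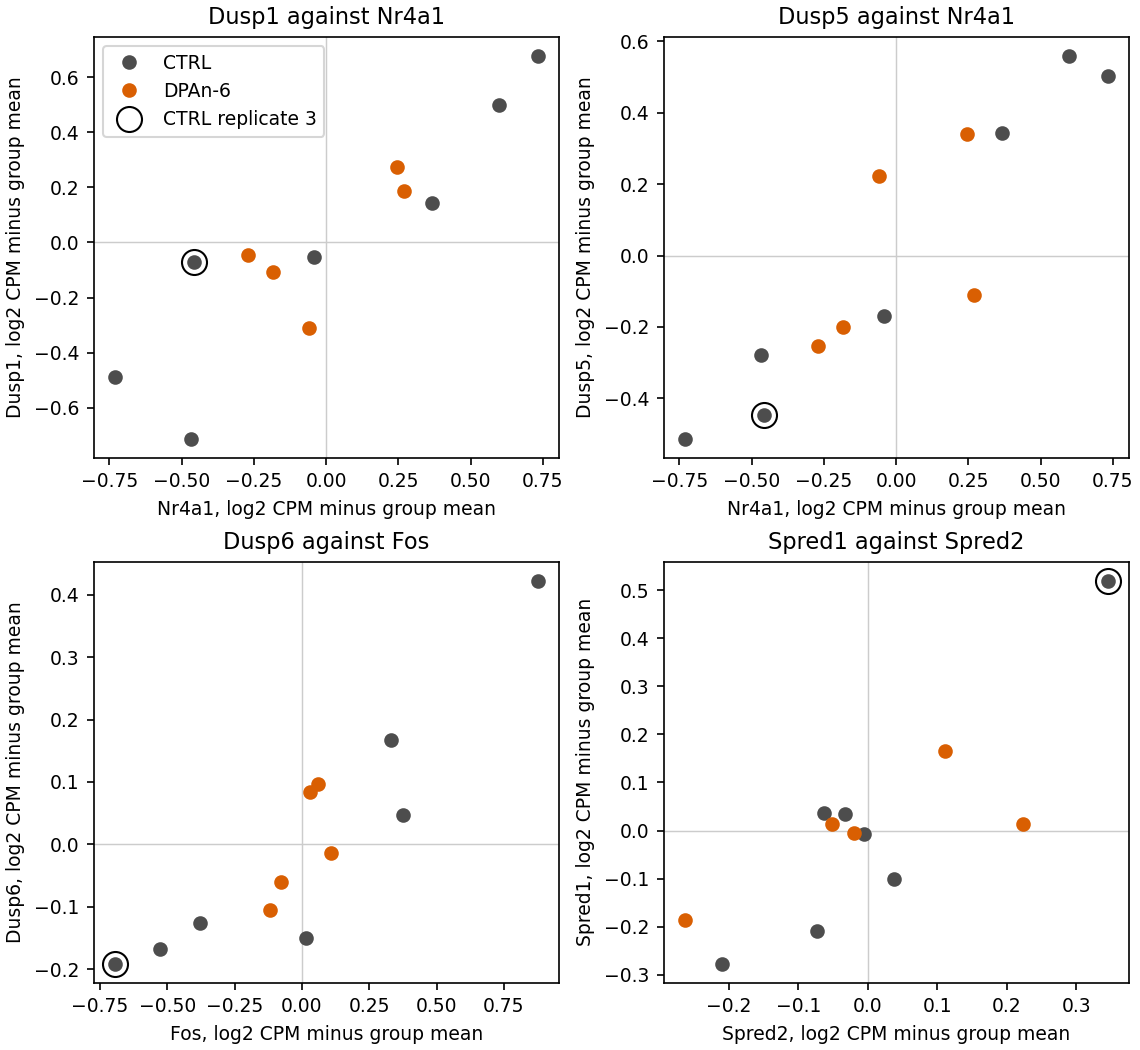
Log2 CPM of each mouse minus the mean of its group, for Dusp1 and Dusp5 against Nr4a1, Dusp6 against Fos and Spred1 against Spred2, with grey points for CTRL (n = 7), orange points for DPAn-6 (n = 5) and a ring around CTRL replicate 3. The ringed mouse lies within the trend of the 3 DUSP plots and at the upper end of the plot of Spred1 against Spred2.

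As a description without a test, the gene in the whole table most like each of the 9 across the 12 mice was taken by the highest Pearson's r of group-centred log2 CPM. These were BC055324 for Dusp1 (r = 0.920), Glrx2 for Dusp4 (r = 0.900), Ica1 for Dusp5 (r = 0.934), Zfp317 for Dusp6 (r = 0.921) and Lrrtm1 for Dusp14 (r = 0.889). For the Sprouty and Spred genes they were Cdkl1 for Spry2 (r = 0.940), Gm20507 for Spry4 (r = 0.931), Ptprd for Spred1 (r = 0.982) and Gm37107 for Spred2 (r = 0.924). The lowest of these best coefficients was still 0.889, a high value that a search over so many genes in 12 mice can give. Spred1 differed in how many genes it resembled: 1658 genes had r above 0.8 with it, and 273 without CTRL replicate 3, while the DUSP genes had 13 to 35 such genes each with all mice and 55 to 78 without that mouse. Spry2 had 117 and 178, Spred2 had 90 and 29, and Spry4 had 18 and 25.

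The rest of the pathway was read from lists of genes by role. Other MAPK phosphatases, Sprouty and Spred genes had 15 of 17 genes tested, 13 with a higher and 2 with a lower fitted level in DPAn-6 mice, a median log2 fold change of 0.10 and 0 called by edgeR. In it Dusp3 had 0.13 (SE 0.06, unadjusted p = 0.0384, adjusted p = 0.309 in edgeR). It was the 1 gene of the list below an unadjusted p of 0.05 in edgeR, beside 14.5% of all genes tested. The next smallest p was that of Dusp22, with a log2 fold change of 0.16 (SE 0.08, unadjusted p = 0.0761, adjusted p = 0.410 in edgeR). Limma-voom and DESeq2 also called 0 genes of this list, each with 1 below an unadjusted p of 0.05. The exact permutation p was 0.00505 for Dusp3, 0.0253 for Dusp22, 0.0328 for Dusp10 and 0.0328 for Dusp16, all higher in DPAn-6 mice. The other genes tested in the list were above 0.05 by it, where 15.8% of all genes tested were below.

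Of the ligands, Bdnf, the neurotrophin that activates TrkB, rose in DPAn-6 mice, with a log2 fold change of 0.56 (SE 0.12, adjusted p = 0.0276 in edgeR). It was the 1 called among 19 growth factors, of which 9 had a higher and 10 a lower fitted level, with a median of -0.03. No receptor tyrosine kinase was called among 14 of 15 tested, 3 with higher and 11 with lower fitted levels and a median of -0.17, and 4 had an unadjusted p below 0.05, beside 14.5% of all genes tested. Limma-voom also called 0 of them and DESeq2 called 1, Igf1r. The smallest p in that list were those of Igf1r, the receptor of insulin-like growth factor (-0.25, SE 0.07, adjusted p = 0.106 in edgeR), and Fgfr2, a fibroblast growth factor receptor (0.20, SE 0.07, adjusted p = 0.158 in edgeR).

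In the Ras-Raf-MEK-ERK cascade, 33 of 33 genes were tested, 14 with higher and 19 with lower fitted levels, a median of -0.05 and 0 called by edgeR, with 6 below an unadjusted p of 0.05, beside 14.5% of all genes tested. Limma-voom called 0 and DESeq2 called 1, Grb2. The smallest p were those of Ksr2, a scaffold of Raf and MEK (-0.30, SE 0.09, adjusted p = 0.134 in edgeR), and Grb2, the adaptor that brings Sos to receptors (0.20, SE 0.06, adjusted p = 0.148 in edgeR). Of 15 genes of the JNK and p38 kinases, 9 had higher and 6 lower fitted levels, with a median of 0.05. Map2k6, the kinase that activates p38, fell by 0.61 on the log2 scale (SE 0.10, adjusted p = 0.0101 in edgeR) and was the 1 called by edgeR and by limma-voom. DESeq2 also called Mapk11, a p38 kinase with a higher level in DPAn-6 mice (0.38, SE 0.11, adjusted p = 0.111 in edgeR). Below an unadjusted p of 0.05 in edgeR were 2 genes with higher and 2 with lower levels, beside 14.5% of all genes tested.

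Among the ERK-responsive transcription factors and effectors, 19 of 25 tested had higher and 6 lower fitted levels, with a median log2 fold change of 0.13. Fosl2, an AP-1 subunit, rose by 0.44 (SE 0.10, adjusted p = 0.0464 in edgeR) and was the 1 called, while limma-voom called 1 and DESeq2 called 3. Another 7 had an unadjusted p below 0.05, all with higher levels in DPAn-6 mice. Thus 8 of 25 were below it in that direction, beside 5.51% of all genes tested. Without CTRL replicate 3, edgeR called 8 of the 25, Egr1, Egr3, Egr4, Fosb, Fosl2, Ier5, Klf10 and Nr4a3, all higher in DPAn-6 mice. In that fit 6.1% of all genes were called, and the calls also held 3 receptor tyrosine kinases (Fgfr3, Igf1r and Pdgfrb, all lower), 4 genes of the cascade (2 higher and 2 lower), Map2k6, Mapk11 and Bdnf. A count of 0 among the 9 feedback genes is near that share of the table. With Ttr as a covariate, 0 genes of these lists were called, Bdnf, Map2k6 and Fosl2 included, where 17 were called in the whole table, 0.108%. These lists were put together with earlier results of these data known, so their counts are a description.

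Markers of some other cell types differed between the groups, and those of others hardly did. The counts below stand beside 1.55% of all genes called and 14.5% below an unadjusted p of 0.05 in edgeR. Summed over Csf1r, Tmem119, P2ry12 and Cx3cr1, microglial markers were at 423 to 571 CPM in CTRL and 311 to 394 in DPAn-6 mice, with 4 of 4 fitted lower and 2 called by edgeR. Markers of meningeal fibroblasts were at 97.1 to 212 CPM in CTRL and 56.0 to 121 in DPAn-6 mice, with 5 of 5 lower and 2 called. Markers of inhibitory neurons were at 567 to 710 and 714 to 841 CPM, with 5 of 5 higher, 0 called by edgeR, limma-voom or DESeq2, and 1 below an unadjusted p of 0.05 in each. Choroid plexus markers ranged from 12.6 to 1659 CPM in CTRL (median 32.6) and from 7.40 to 22.7 CPM in DPAn-6 mice (median 10.3). Of these, 4 of 4 tested genes were lower, with 0 called by edgeR or limma-voom and 3 by DESeq2. Below an unadjusted p of 0.05 were 4 in edgeR and 1 in limma-voom. The exact permutation p was 0.0189 for Ttr and 0.0505, 0.0985 and 0.105 for Clic6, Kl and Aqp1. Markers of striatal neurons, which a cortex dissection can take along, were at 242 to 636 CPM in CTRL and 227 to 488 in DPAn-6 mice. These ranges overlapped widely, with medians of 335 and 453 CPM. Of the striatal genes 6 of 6 were fitted higher, with 0 called by edgeR, limma-voom or DESeq2. Below an unadjusted p of 0.05 were 1 in edgeR, 1 in DESeq2 and 0 in limma-voom. Oligodendrocyte markers had 4 of 5 higher, with 0 called and 4 below an unadjusted p of 0.05 in edgeR. Mural cell markers had 5 of 5 lower, 0 called and 1 below it. Excitatory neuron markers had 3 of 4 higher and astrocyte markers 4 of 5 lower, with 0 and 1 below it and 0 called. Oligodendrocyte precursor, endothelial, thalamic, hippocampal dentate and red blood cell markers also had 0 called by edgeR. No marker of these lists was at 0 in any library. With the choroid plexus gene Ttr as a covariate in edgeR, the log2 fold changes were 0.52 for Dusp4, 0.53 for Dusp5 and 0.17 for Spry2, and the unadjusted p was 0.0221, 0.0698 and 0.117. With the mean of the striatal markers as a covariate the log2 fold changes were 0.51, 0.53 and 0.16, and the unadjusted p in edgeR was 0.00207, 0.0177 and 0.0748. None of the 9 genes was called in either fit, and the part of the cell types in these values was not tested otherwise.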

How the data were processed

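RNA-Seq was measured in cortex of 12 mice (7 CTRL, 5 DPAn-6, 1 library each). The authors prepared poly(A)-selected libraries, aligned the reads to GRCm38 with STAR (2.5.3a in the submitters' processing notes) and deposited raw read counts per gene without normalization; the strand setting is not given in the sources used here. Of 50563 identifiers, 50339 matched GENCODE M21, and 197 of 198 listed genes were found. Some items of the marker lists are not reported here.

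The test was that of edgeR 4.0.16, run in R 4.3.3 (filterByExpr by group, TMM factors of 0.961 to 1.02, glmQLFit and glmQLFTest) with Benjamini-Hochberg adjustment over 15688 genes. Log2 CPM used a pseudocount of 0.5 and plain library totals. RPKM divides by the summed exon length. Single genes were compared by two-sided exact permutation over 792 splits. Correlations used 100000 resamples (Python 3.11.15, numpy 2.4.6, scipy 1.17.1, pandas 2.3.3).

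The labels give groups, ages and replicate numbers, and nothing says that equal numbers mark related mice. Alternatives were DESeq2 1.42.0, limma-voom (limma 3.58.1), other filters and scaling, covariates, subsets, the replicate block and each mouse left out. The genes named are all 9, the gene most correlated with each, and in each list those called or, with none called, the 2 with the smallest p. Genes of high correlation in the ERK-responsive list and the markers named were added after their values were seen. Also chosen after seeing the data were the correlations with that list, the age permutation, the subsets for correlations and the lists by other settings. The members and lists were chosen with earlier results of these data known. The scripts were tested on simulated data. P-values measure the spread between single mice.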

Additional observations from a re-analysis of the deposited data

Results flagged for a closer look

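Spred1 in CTRL replicate 3 had 8.24 log2 CPM, against 7.45 to 7.76 in the other 6 CTRL mice, and its gap to the nearest of them was too large a share of the group's range for Dixon's test at 95%. Chance gives such a value in about 1 in 20 groups, and 18 groups were examined here, the 9 genes in both treatments. The same library was the highest CTRL mouse for Spred2 and stood apart over the table.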

How the results depend on the processing

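None of the 9 genes had an adjusted p below 0.05 in any of 24 alternatives, the lowest being 0.101. Dusp4, Dusp5, Dusp6, Spry2, Spry4 and Spred2 kept their direction in 24 of 24, Dusp1 and Dusp14 in 23 and Spred1 in 18. The Spred1 log2 fold change was 0.013 by limma-voom, 0.021 without TMM, 0.014 without the filter on low counts and 0.068 with the striatal covariate, and with each mouse left out it ran from -0.049 to 0.11 (without CTRL replicate 3). With Ttr as covariate, that of Dusp1 was 0.073 and that of Dusp14 -0.055. The difference of mean log2 CPM of Spred1, 0.039 in all mice, was -0.036 in 14-month mice and -0.0076 to 0.13 with each mouse left out, where that of Dusp1, -0.081 in all mice, was -0.20 to 0.032. The cause of these shifts was not tested.

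Over the whole table, 243 genes were called by edgeR, 696 by DESeq2, 17 with Ttr as covariate and 9 in 14-month mice, and with each mouse left out 64 (without DPAn-6 replicate 3) to 953 (without CTRL replicate 3). The number of the 9 genes with an exact permutation p below 0.05, 2 in all mice, was 0 in 14-month mice, where fewer splits exist, and 1 to 4 with each mouse left out (added after seeing the data). The number with an unadjusted p below 0.05 was 0 to 3 with each mouse left out.

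With the replicate number as a block, on replicates 1 to 5 of both groups, 69 genes were called, against 148 in the same libraries without the block, a fit added after seeing the data. Deviations of mice with the same number had correlations of 0.0911, 0.0157, -0.125, 0.220 and -0.0666, and 1 of 5 mice correlated best with its own number. This gave no sign that the numbers pair the mice, but 5 correlations are too few to exclude it. The block changed no call among the 9 genes. In both fits Dusp14 was the 1 gene of the 9 with an unadjusted p below 0.05 in edgeR, 0.0214 with the block and 0.0444 without it.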
